A study of Mus musculus with 4 samples.

Results

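The genes described here build, deliver and fuse the transport vesicles of the cell surface. They are the clathrin chains, the adaptor subunits of AP-2 to AP-5, the GGA adaptors, the exocyst, small GTPases and a lipid kinase of vesicle delivery, 4 SNAREs, the scaffold gene Itsn1 and Ap1ar, whose product binds AP-1. The members were 41 named genes of 18193 measured, and each was read from the probe set annotated to that gene alone with the highest mean over the 4 arrays. Of the 41, 40 passed a filter on dim probe sets, as did 11326 of all genes, and Ap3m2 did not.

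RNA came from small intestinal epithelial cells of healthy C57BL/6J mice, aged 10 weeks and kept specific pathogen-free. The labels placed 2 arrays in an AP-1B+/- group and 2 in an AP-1B-/- group. The heterozygous animals, which carry 1 targeted allele, served as the control, and no wild-type array was analysed here. The labels do not say how the allele was made or whether the replicates came from separate animals. Every p-value measures only the spread among these 4 arrays. Values are multiples of the array median, and levels of different probe sets cannot be set against each other. Where 4 values are given in a row, they stand for the arrays labelled heterozygous 1, heterozygous 2, knockout 1 and knockout 2, in that order.

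Cargo proteins are gathered into transport vesicles by adaptors, which bind sorting signals in the cargo and, for several adaptors, recruit the clathrin lattice. AP-2 works at the plasma membrane in endocytosis, while AP-1, the GGAs, AP-3, AP-4 and AP-5 work at the Golgi and endosomes. AP-1B is the epithelial form of AP-1 and sorts cargo to the basolateral surface. A vesicle that reaches the surface is held by the exocyst, a tethering complex controlled by Ral and Arf GTPases, and then fused by SNAREs.

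The arrays differed before any gene was considered. The 75th percentile was 4.13, 5.54, 5.57 and 4.27, higher on heterozygous 2 and knockout 1. Ap1m2, which encodes the targeted AP-1B subunit, had 19.9, 4.33, 2.49 and 22.2. That order contradicts the label of heterozygous 2 and that of knockout 2, and directions below are by label only. Xist and the Y-linked genes placed both replicate 1 arrays with males and both replicate 2 arrays with females, so the 2 arrays of each label held RNA of different animals. The spread within a label therefore includes sex, and its technical part is not known. The 14 measured epithelial markers, among them Fabp1 at 707, 770, 910 and 582, were above the array median on at least 1 array each. The 10 T and NK cell markers summed to 478, 98.8, 12.7 and 301, and the 8 myeloid markers to 99.6, 38.2, 36.1 and 47.2. The 4 pancreatic acinar markers summed to 0.48, 10.0, 0.919 and 52.8, so markers of other cells were measured too. In such bulk samples, fewer cells of a type and less RNA per cell cannot be told apart.

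Of the vesicle genes, 39 of 40 lay close together in the labelled groups and 1, Itsn1, did not. Itsn1 was higher on both arrays labelled knockout, while the other 39 had log2 differences between −0.37 (Gga1) and 0.33 (Ap3s2), each smaller than its own standard error. A difference is the labelled knockout mean less the labelled heterozygous mean, on the log2(value + 0.32) scale, from limma fitted across 22519 probe sets. No member passed the Benjamini-Hochberg threshold of 0.05, and neither did any probe set (0% higher and 0% lower, lowest adjusted p = 0.999907 by limma). At an unadjusted p under 0.05 by limma there were 170 probe sets (67 higher and 103 lower), or 0.755%, and 1 of 40 members, Itsn1. Itsn1 passed the filter of 0.983 only through the arrays labelled knockout, so this count supports nothing about the members. With no filter, 1252 of 45037 probe sets (2.78%) and 1 of 41 members, again Itsn1, had an unadjusted p under 0.05 by limma. Over the 39 members with both group means above the filter the median log2 difference was 0.025, with 20 higher and 19 lower, beside 0.004 over 11326 genes. A log2 difference of at least 1 in size was found for 1 of 40 members, Itsn1, and for 2.3% of all genes. One of at least 0.5 was found for the same 1 of 40 members (2.5%) and for 15.8% of all genes.

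**Figure D1:**
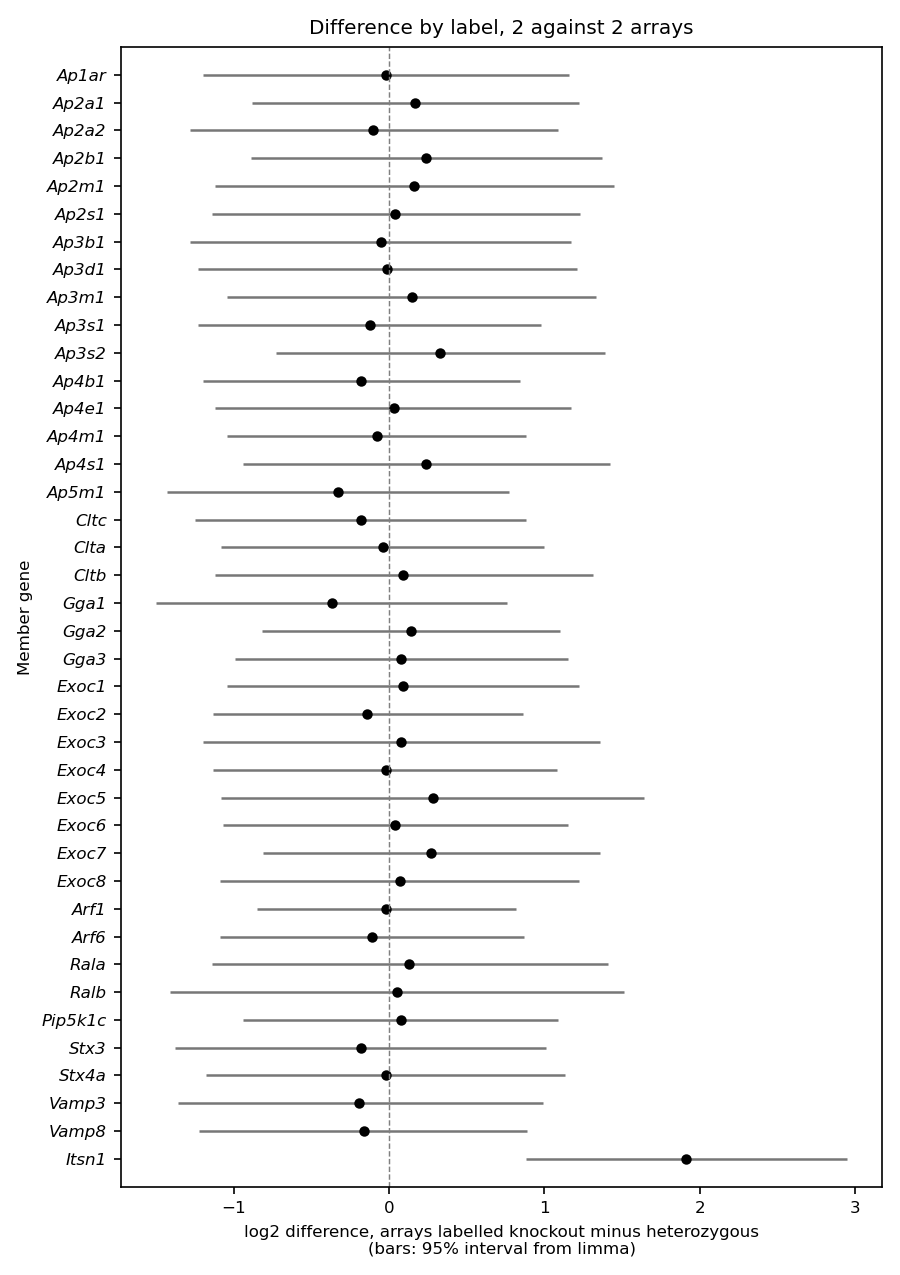
Log2 difference by label (x axis, arrays labelled knockout minus heterozygous, 2 arrays each) for the 40 members that passed the filter, in order of role. Points are limma estimates and bars their 95% intervals; 39 intervals include 0 and that of Itsn1 runs from 0.88 to 2.95, before any adjustment for the number of probe sets tested.

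The interval of each difference was wide. Standard errors ran from 0.38 (Arf1) to 0.67 (Ralb), and the 95% intervals of the 39 genes other than Itsn1 reached from −1.5 (Gga1) to 1.64 (Exoc5). A change of up to about that size could therefore have gone unseen. With 2 arrays a group, the smallest two-sided p of an exact permutation test is 0.333, so that test was not run.

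The spread of the members lay between arrays of the same label. On the deposited values, both within-label differences were larger than the difference between the labels at 36 of 40 members (90.0%) and at 62.7% of all genes. The 2 highest arrays were heterozygous 2 and knockout 1 at 34 of 40 members (85.0%), beside 56.7% of all genes. With a mean of 20 or more the shares were 93.8% of 16 members and 71.5% of all genes. From 5 to below 20 they were 78.9% of 19 members and 68.5%, and below 5 they were 80.0% of 5 members and 36.3%. Heterozygous 2 and knockout 1 are the arrays with the higher 75th percentile. They are also those with the lower Ap1m2 signal (4.33 and 2.49, against 19.9 on heterozygous 1 and 22.2 on knockout 2). The part of either in this order was not tested. After quantile normalization, which gives the arrays the same distribution, that pair was highest at 14 of 40 members, beside 27.8% of all genes. Heterozygous 2 and knockout 2 were then the highest pair at 11 members, heterozygous 1 and knockout 2 at 8, both knockout arrays at 4, heterozygous 1 and knockout 1 at 3 and both heterozygous arrays at 0.

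**Figure D2:**
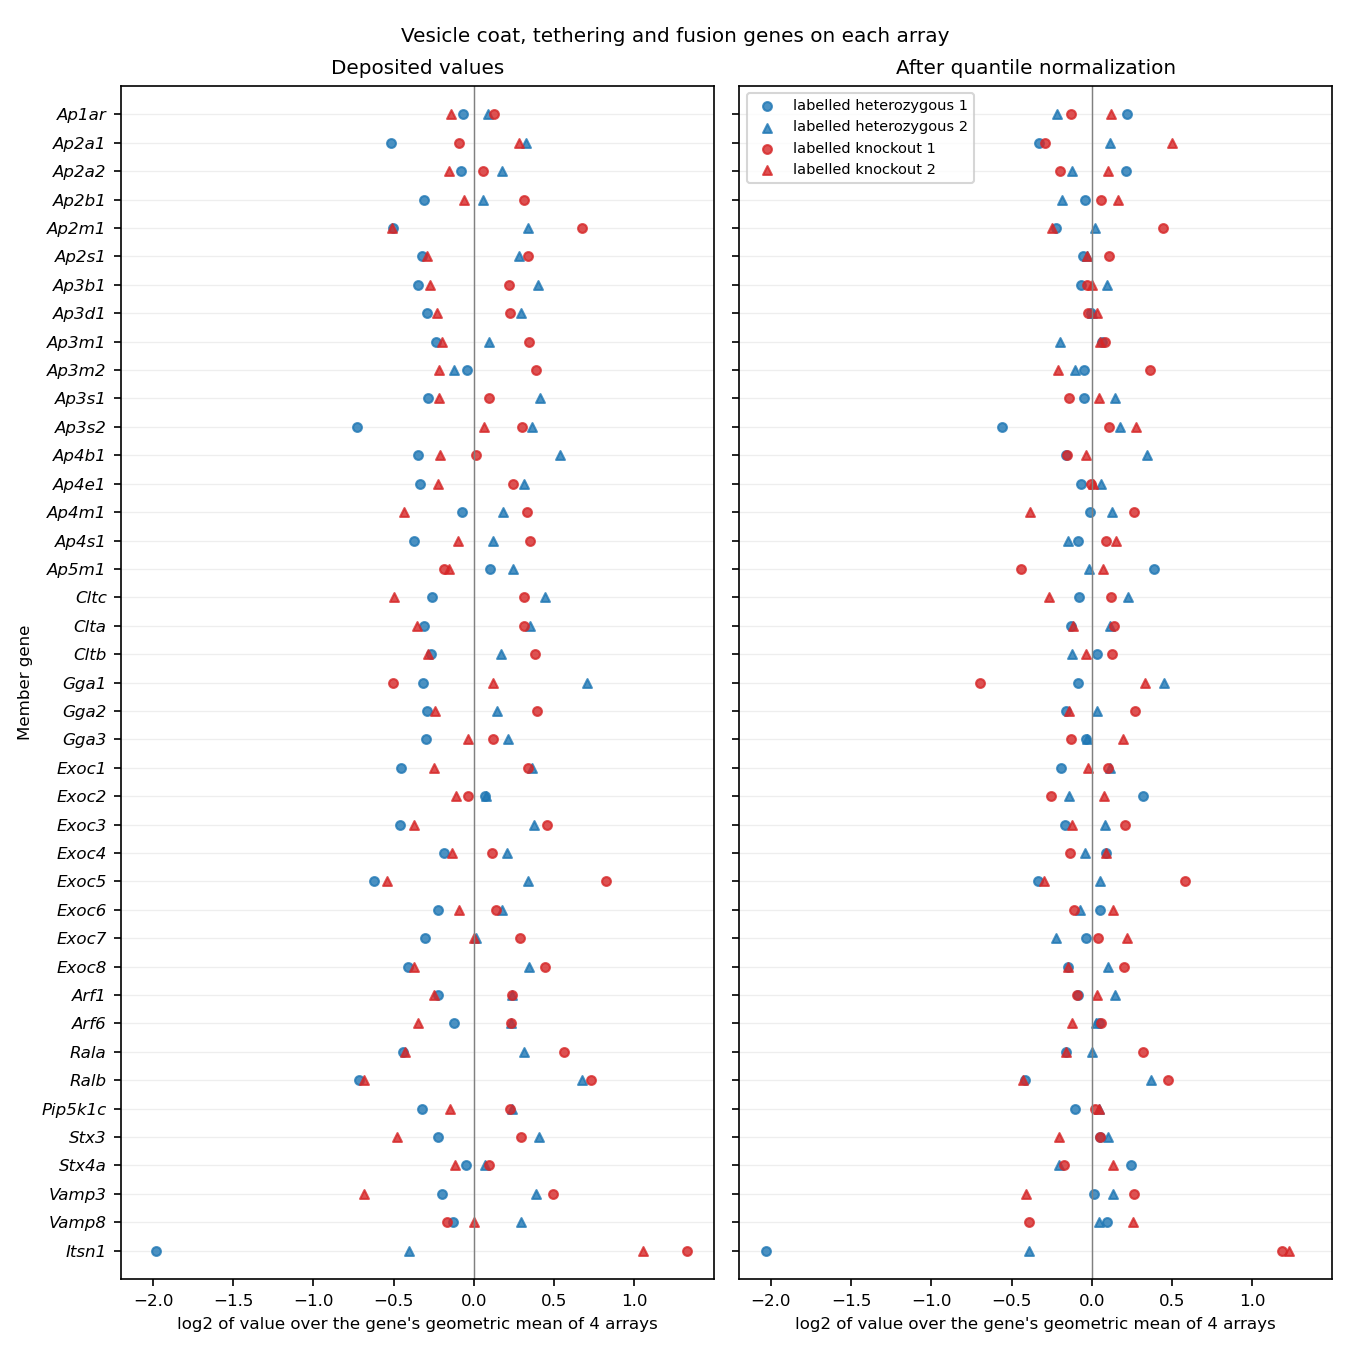
Each of the 41 members (rows, in order of role) on the 4 arrays, as log2 of the value over the gene's geometric mean, for deposited values (left) and after quantile normalization (right). On the left the arrays labelled heterozygous 2 (blue triangles) and knockout 1 (red circles) lie to the right at 34 of the 40 genes that passed the filter; on the right that order holds at 14, and Itsn1 is the widest row in both panels.

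After quantile normalization the members varied little. The highest array was a median of 1.31 times the lowest, beside 1.67 times over all genes, and the ratio was under 1.5 at 29 of 40 members (72.5%) and at 36.7% of all genes. Among genes with a mean of 20 or more, it was 1.28 for 16 members and 1.49 for all 2910 genes, and among those with a mean from 5 to below 20 it was 1.27 for 19 members and 1.58 for all 3994. Ratios of 1.5 or more were found for Ap2a1, Ap2m1, Ap3s2, Ap4m1, Ap5m1, Gga1, Exoc5, Ralb, Vamp3, Vamp8 and Itsn1, and only Itsn1 and Gga1 reached a ratio of 2. These are descriptions of 4 arrays, and no test compares the members with other genes.

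**Figure D3:**
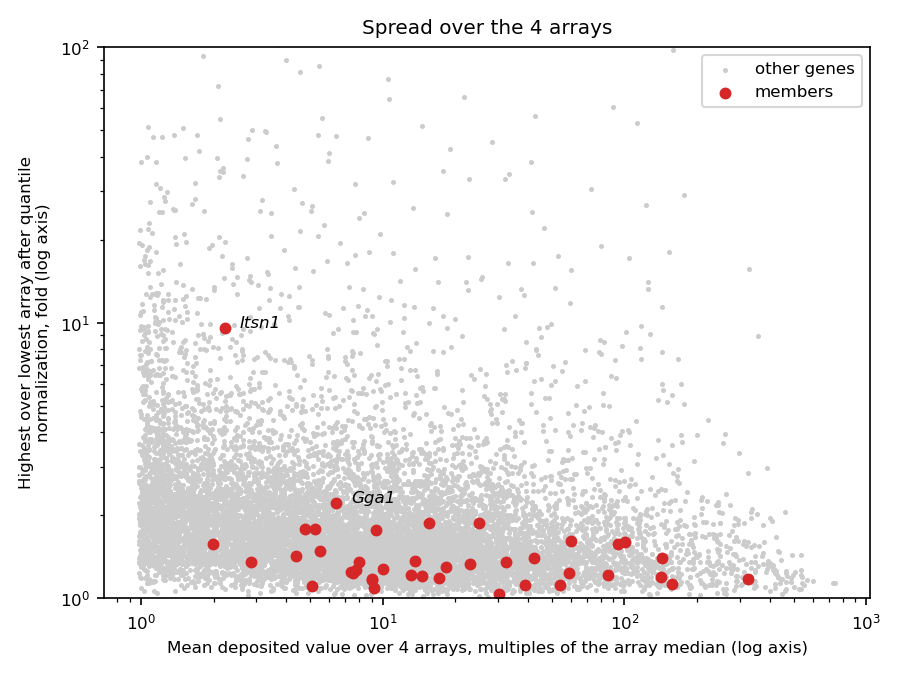
Ratio of the highest to the lowest array after quantile normalization (y axis, log scale) against the mean deposited value (x axis, multiples of the array median, log scale), for the 40 members in red and other genes in grey. Most members lie below the median ratio of all genes, 1.67, while Itsn1 lies at 9.57 and Gga1 at 2.22; 17 genes above 100 are outside the axis.

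Clathrin itself was even between the labels. Cltc, the heavy chain that forms the legs of the lattice, had 115, 187, 171 and 97.4, a mean of 151 ± 51.0 on the arrays labelled heterozygous and 134 ± 51.9 on those labelled knockout (SD, n = 2 each). The difference of −0.18 on the log2 scale had a standard error of 0.49. The groups overlapped, with both extremes held by replicate 2 arrays. Clta and Cltb encode the light chains, which bind the heavy chain and regulate its assembly. Clta had 112, 176, 172 and 108, a log2 difference of −0.04 with a 95% interval from −1.08 to 1.0. Cltb had 13.9, 18.8, 21.8 and 13.7, a log2 difference of 0.09. After quantile normalization the 3 genes had ratios of highest to lowest array of 1.40, 1.2 and 1.19 in the order Cltc, Clta, Cltb.

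Of the AP-2 subunits, 4 of 5 had values above 0 on the log2 scale and none passed the test. Ap2m1, the mu subunit that reads tyrosine-based sorting signals, had 39.7, 71.0, 89.8 and 39.4. Its lowest and highest values were both on arrays labelled knockout, and the log2 difference was 0.16 with a standard error of 0.59. The large subunit gene Ap2b1, whose product binds clathrin, had 7.97, 10.3, 12.3 and 9.48, a log2 difference of 0.24. The deposited groups of Ap2b1 overlapped, but after quantile normalization the values were 9.80, 8.85, 10.5 and 11.3, with both arrays labelled knockout above both labelled heterozygous. A second probe set of Ap2b1 that passed the filter lay on the other side, with a log2 difference of −0.16. The alpha subunit genes, whose products bind the membrane lipid of the plasma membrane, had 3.58, 6.42, 4.79 and 6.21 for Ap2a1 and 21.7, 25.9, 23.8 and 20.6 for Ap2a2. The small subunit gene Ap2s1, which holds the core of the complex together, had 42.3, 64.4, 67.0 and 43.2, a log2 difference of 0.04. After quantile normalization it read 52.1, 53.0, 58.2 and 53.0, so its arrays differed by a ratio of 1.12.

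AP-3 carries cargo from endosomes to lysosomes and related organelles. Ap3d1, its delta subunit, was among the steadiest members, with 24.3, 36.5, 34.7 and 25.3 as deposited and 30.1, 30.2, 29.7 and 30.9 after quantile normalization. The log2 difference was −0.01 with a 95% interval from −1.23 to 1.21. Ap3b1, the ubiquitous beta subunit, had 29.6, 49.8, 43.9 and 31.2, and the sigma subunit gene Ap3s1 had 69.0, 112, 89.8 and 72.6, with log2 differences of −0.05 and −0.12. The second sigma gene, Ap3s2, had 2.76, 5.88, 5.63 and 4.77. Its low value on heterozygous 1 set the log2 difference of 0.33, and 2 of its 5 probe sets that passed the filter were on the other side of 0. Of the mu genes, Ap3m1 had 12.2, 15.3, 18.2 and 12.5 (log2 difference 0.15), and all 4 of its probe sets lay above 0. The neuronal form Ap3m2 stayed near the array median, at 0.883, 0.835, 1.19 and 0.785, and did not pass the filter.

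AP-4 and AP-5 do not use clathrin. The AP-4 subunit genes had log2 differences between −0.18 and 0.24. Ap4e1, the epsilon subunit, had 7.17, 11.2, 10.7 and 7.75, and Ap4b1, the beta subunit, had 3.36, 6.21, 4.32 and 3.70. Their groups overlapped, and so did those of Ap4m1, the mu subunit, at 1.85, 2.21, 2.46 and 1.44. Ap4s1, the sigma subunit, had 9.96, 14.0, 16.4 and 12, which overlapped as deposited. After quantile normalization Ap4s1 read 12.3, 11.8, 13.9 and 14.5, with the groups apart. Ap5m1, the mu subunit of AP-5, had 9.98, 11, 8.16 and 8.35, so both arrays labelled knockout were below both labelled heterozygous, with means of 10.5 ± 0.704 and 8.26 ± 0.133 (SD, n = 2 each). The log2 difference was −0.33 with a standard error of 0.51, the groups overlapped after quantile normalization, and a second probe set that passed the filter had 0.10.

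Among the GGAs, which are single-chain adaptors of the Golgi, Gga1 stood out for its spread and not for a difference by label. It had 4.88, 9.95, 4.29 and 6.61, and after quantile normalization 5.86, 8.51, 3.83 and 7.84. Knockout 1 was lowest in both cases, heterozygous 2 highest, and the log2 difference was −0.37 with a 95% interval from −1.5 to 0.76. Gga2 had 2.28, 3.09, 3.68 and 2.36, and Gga3 had 5.98, 8.5, 7.97 and 7.17. Ap1ar, which links AP-1 vesicles to a kinesin motor, had 30.8, 34.2, 35.1 and 29.2, a log2 difference of −0.02 with a 95% interval from −1.2 to 1.16.

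The exocyst is built of 8 subunits, all of which passed the filter. Their log2 differences lay between −0.14 (Exoc2) and 0.28 (Exoc5), with 6 above and 2 below 0, and none passed the test. Exoc5, a core subunit often called Sec10, had 9.25, 18, 25.2 and 9.80. Its lowest and highest arrays were heterozygous 1 and knockout 1, both of replicate 1, and the pair of knockout arrays was 2.57 times apart. After quantile normalization it read 11.4, 14.9, 21.5 and 11.7, which left knockout 1 the highest. Exoc3 (12.8, 22.9, 24.2 and 13.6), Exoc1 (5.33, 9.38, 9.25 and 6.16) and Exoc8 (5.64, 9.52, 10.2 and 5.79) had the same pair of highest arrays as deposited, and their ratios of highest to lowest were 1.30, 1.24 and 1.27 after quantile normalization, in that order. Exoc1 and Exoc8 encode the subunits known as Sec3 and Exo84, and the first of these binds the plasma membrane.

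Exoc7 encodes the Exo70 subunit that binds the plasma membrane lipid, and Exoc2 the Sec5 subunit that Ral binds. At the probe sets read here, these were the exocyst genes whose labelled groups lay apart on 1 of the scales. A second Exoc3 probe set that passed the filter also had its groups apart as deposited, with 4.2, 4.77, 5.86 and 5.36. Exoc7 had 6.44, 8.03, 9.69 and 7.93 as deposited, so that knockout 2 lay just below heterozygous 2. After quantile normalization it had 7.89, 6.91, 8.29 and 9.40, with the groups apart, and its log2 difference was 0.27 with a standard error of 0.50. Exoc2 had 5.78, 5.79, 5.36 and 5.09, with the groups apart as deposited and a log2 difference of −0.14. After quantile normalization Exoc2 had 7.02, 5.09, 4.71 and 5.91, and the groups overlapped. Exoc4, the Sec8 subunit, had 7.92, 10.4, 9.72 and 8.20, and Exoc6, the Sec15 subunit that binds Rab GTPases, had 7.68, 10.1, 9.86 and 8.38. Both had log2 differences under 0.1 in size.

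Counts of groups that did not overlap moved with the scaling. As deposited, 1 of 40 members (Itsn1) was higher on both arrays labelled knockout, beside 5.51% of all genes, and 2 (Ap5m1 and Exoc2) were lower, beside 10.9%. After quantile normalization 4 were higher (Ap2b1, Ap4s1, Exoc7 and Itsn1), beside 11.8%, and 0 were lower, beside 11%. These counts are small and those of higher genes include Itsn1, so no difference between the members and all genes is read from them. Itsn1 was the member found on both scales.

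The GTPase genes were level by label and differed in how far the arrays spread. Arf1, the GTPase that recruits AP-1 and the GGAs to the Golgi, had 273, 376, 375 and 268, and Arf6, which acts at the plasma membrane and recycling endosomes, had 142, 182, 182 and 122. Their log2 differences were −0.02 and −0.11, and the 95% interval of Arf1, from −0.85 to 0.82, was the narrowest of the members. Rala and Ralb encode the Ral GTPases that bind the exocyst. Rala had 29.7, 50.0, 59.6 and 29.9, and Ralb had 13.6, 35.6, 37.1 and 13.9. Ralb was even between the labels, at 24.6 ± 15.6 and 25.5 ± 16.4 (SD, n = 2 each), while its highest array was 2.73 times its lowest. After quantile normalization Ralb still had 17.0, 29.4, 31.6 and 16.9, and its second probe set had 8, 19.9, 24.0 and 8.49 as deposited, with the same arrays high. Pip5k1c, the kinase that makes the plasma membrane lipid to which AP-2 binds, had 4.03, 5.95, 5.89 and 4.55, and a log2 difference of 0.08.

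The stretch before the start of Ralb is shown because its arrays differed most among the members other than Itsn1 as deposited. It is taken from RefSeq on GRCm38.p6, minus strand, chr1:119504783-119505032, and is the 250 bases upstream of the start site, printed 5′ to 3′ with the letters GGGCGG of the GC box, the letters CCAAT and the letters TATAAA of the core promoter motif in capitals on either strand.
Ralb: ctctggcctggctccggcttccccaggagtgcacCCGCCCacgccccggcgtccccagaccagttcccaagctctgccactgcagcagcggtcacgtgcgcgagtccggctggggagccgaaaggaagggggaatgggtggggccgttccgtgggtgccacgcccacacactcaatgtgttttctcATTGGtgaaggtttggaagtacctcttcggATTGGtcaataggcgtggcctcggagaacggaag
It held 1 GC box and 2 CCAAT boxes, and no match to TATAAA.

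All 4 SNARE genes had log2 differences below 0, none of which passed the test. Stx3, the apical syntaxin of enterocytes, had 49.0, 75.9, 70.0 and 41, a log2 difference of −0.18 (standard error 0.55). Its groups overlapped, and each of its 4 probe sets that passed the filter lay below 0. Only 1 of the 4 had its groups apart as deposited, with 4.27, 4.74, 2.77 and 3.55. Stx4a, the basolateral syntaxin, hardly moved, with 13.1, 14.2, 14.5 and 12.5, a log2 difference of −0.02 and a 95% interval from −1.18 to 1.13. Vamp3, a vesicle SNARE of recycling endosomes, had 83.3, 125, 135 and 59.5. Knockout 1 was the highest and knockout 2 the lowest array, and its log2 difference was −0.19 with 3 of 5 probe sets above 0. Vamp8, a SNARE of endosomes and of regulated secretion, had 85.4, 115, 83.2 and 93.8, and after quantile normalization 101, 97.6, 72.0 and 113. Knockout 1 was lowest for Vamp8 on both scales, and its log2 difference was −0.16. The Vamp3 and Ralb probe sets carry the suffix _x_at and those of Ap1ar, Ap2a2, Clta, Gga1 and Itsn1 the suffix _s_at, which mark probes that may hybridise to several transcripts.

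Itsn1 had the widest difference by label among the members, and it did not pass the adjusted threshold. Intersectin 1, its product, is a scaffold that gathers AP-2, dynamin and other proteins of endocytosis at forming coated pits. The probe set with the highest mean (1435885_s_at) had 0.402, 1.2, 3.99 and 3.30, a mean of 0.801 ± 0.564 on the arrays labelled heterozygous and 3.64 ± 0.489 on those labelled knockout (SD, n = 2 each). Both arrays labelled knockout were above both labelled heterozygous, also after quantile normalization (0.385, 1.2, 3.58 and 3.69). The log2 difference was 1.91 with a standard error of 0.48 (limma, unadjusted p = 0.00167, adjusted p = 0.999907), so it did not pass. The heterozygous mean lay below the filter of 0.983 and the knockout mean above it, so a probe set with this mean on the heterozygous arrays could enter the test only by being higher on the others. With no filter the unadjusted p was 0.00725 (limma, adjusted p = 0.999984). Heterozygous 1 lay below the array median and heterozygous 2 close to it, so the difference rested on dim values. With 1 array left out the log2 difference ran from 1.38 to 2.45, and it was 2.04 without knockout 2. Each of these fits holds a lone array in 1 group, which is assumed to vary like the other pair, the only source of its spread.

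The other probe sets of Itsn1 showed less. Of 9, 5 passed the filter. The second (1452338_s_at) had 1.40, 1.96, 2.70 and 2.32 and the third (1442637_at) had 1.55, 1.36, 2.74 and 1.77, each with a log2 difference of 0.51 and groups that did not overlap. The other two overlapped, 1425899_a_at with 1.04, 1.97, 2.31 and 1.40 (log2 difference 0.27) and 1435884_at with 0.841, 1.61, 1.30 and 1.05 (−0.01). With the log2 values of all 9 probe sets averaged, the Itsn1 difference was 0.53 with a standard error of 0.31 (limma, unadjusted p = 0.127). A difference above 1 on the log2 scale was seen at 1 probe set of Itsn1, and 4 of the 5 that passed the filter lay above 0.

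**Figure D4:**
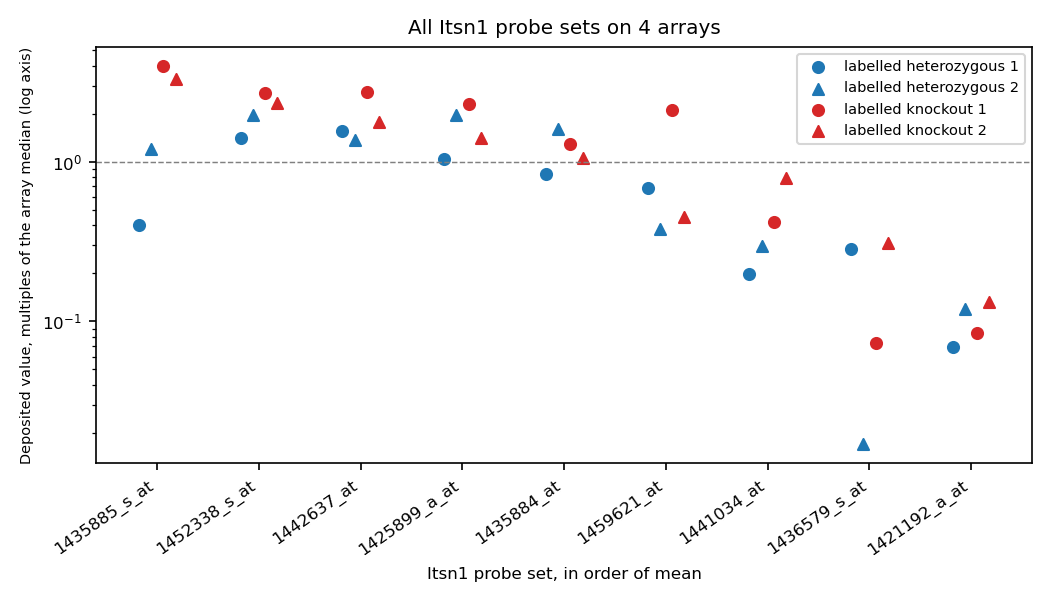
Deposited values (y axis, multiples of the array median, log scale) of the 9 Itsn1 probe sets (x axis, in order of mean) on the 4 arrays, with the array median as a dashed line. The first 3 probe sets have both arrays labelled knockout (red) above both labelled heterozygous (blue), and the gap is widest for the first, from 1.2 to 3.30.

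Summed markers of 2 other cell classes were higher on both arrays labelled knockout, while most of their genes overlapped between the labels. The 10 stromal and muscle markers, all measured, summed to 19.0, 16.8, 24.9 and 23.4. The smooth muscle genes Acta2, Actg2 and Myh11 were higher on both arrays labelled knockout, with 5.91, 6.39, 9.66 and 10.1 for Acta2. Actg2 had 0.952, 0.971, 1.92 and 2.58, and Myh11 had 0.596, 0.602, 1.45 and 1.57, all nearer the array median. The muscle gene Des overlapped, at 0.641, 0.389, 0.46 and 2.34. The endothelial gene Pecam1 was lower on both arrays labelled knockout and below the array median on all 4. The 6 markers that overlapped, Des among them, included the collagen gene Col3a1 at 5.28, 4.19, 6.08 and 3.52. Of the 10, 3 were thus higher and 1 lower on both arrays labelled knockout. The shares over all genes that passed the filter were 5.51% and 10.9%. The 5 measured markers of enteric neurons and glia summed to 2.81, 3.60, 6.41 and 4.17. Their brightest genes, both of glia, overlapped, with 0.92, 1.89, 2.34 and 1.86 for Sox10 and 0.651, 1.37, 2.53 and 0.712 for S100b. The neuronal genes Elavl4, Tubb3 and Uchl1 were below the array median on all 4 arrays. Of these, Tubb3 and Uchl1 were higher on both arrays labelled knockout, 2 of the 5 markers beside the same 5.51% of genes. The part of these cells in the Itsn1 values was not tested.

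The stretch before the start of Itsn1 is shown because the gene was the member with the largest difference by label. It is the 250 bases upstream of the start site in RefSeq on GRCm38.p6, plus strand, chr16:91729121-91729370, in the same format.
Itsn1: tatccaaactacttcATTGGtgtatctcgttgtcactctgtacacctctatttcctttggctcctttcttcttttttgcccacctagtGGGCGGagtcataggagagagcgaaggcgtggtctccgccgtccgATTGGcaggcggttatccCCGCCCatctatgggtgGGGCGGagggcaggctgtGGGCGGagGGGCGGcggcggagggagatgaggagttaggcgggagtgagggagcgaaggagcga
It held 5 GC boxes and 2 CCAAT boxes, and no match to TATAAA.

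Windows of 250 bases upstream of the start were found for 37 of the 41 members and for 17491 protein-coding genes, using the first start site listed where a gene had several. The GC box GGGCGG was found in 21 of 37 members (56.8%) and 42.7% of all windows, and CCAAT in 12 (32.4%) and 36.3%. TATAAA was found in 1, Stx3 (2.7%), and in 12.4% of all. The ETS site CCGGAAG was found in 8 (21.6%), namely Ap1ar, Ap2b1, Ap2s1, Ap3d1, Ap4e1, Ap5m1, Gga1 and Rala, and in 9.1% of all, and the E-box CACGTG in 3 (8.1%) and 6.6%. Both strands were searched, and whether matches of different motifs shared bases was not checked. A match is a description and not a bound site. The median GC content was 60.0% for the members and 55.2% for all windows, with Stx3 lowest among the members at 42.0%.

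Other genes of the pathway were counted from lists that hold no member. By limma with Benjamini-Hochberg adjustment none of their 115 genes that passed the filter was called in either direction, and none had an unadjusted p under 0.05. Of AP-1 subunits, 8 of 8 passed the filter, with 1 higher and 7 lower (median log2 difference −0.152), and of the remaining adaptor and accessory genes of AP-3 to AP-5 4 of 5, with 0 higher and 4 lower (median −0.136). Accessory proteins of clathrin-coated vesicles had 9 higher and 22 lower of 31 (median −0.115), further SNAREs and fusion factors 7 and 31 of 38 (median −0.099), and regulators of Arf, Ral and phosphoinositides 12 and 22 of 34 (median −0.091), beside 0.004 over all genes. As deposited, these 5 medians turned positive without heterozygous 2 (0.039 to 0.224) and without knockout 2 (0.027 to 0.137). The median of all genes did so too (0.225 and 0.188). On quantile-normalized values, a setting added after seeing the data, the 5 medians stayed below 0 without heterozygous 2 (−0.228 to −0.026). The same held without knockout 2 (−0.179 to −0.073) and without heterozygous 1 (−0.265 to −0.074). Without knockout 1 they ran from −0.182 to 0.046, with only the regulators of Arf, Ral and phosphoinositides above 0.

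The genes with the smallest p in each of these lists are given as values. In AP-1 they were Ap1s3, a small subunit, with 31.7, 26.1, 18.9 and 8.61 (log2 difference −1.15, standard error 0.59), and Ap1b1, the beta subunit, with 15.8, 28.1, 19.9 and 11.1 (−0.49). Ap1s3 was lower on both arrays labelled knockout, and its unadjusted p by limma was 0.0733. Among accessory proteins Reps2, a partner of the Ral-binding protein, had 10.9, 14.9, 6.15 and 10.8 (−0.62), and Aak1, the kinase that acts on the AP-2 mu subunit, had 15.6, 20.8, 14.0 and 12.2 (−0.45). Among SNAREs and fusion factors the values were 1.61, 0.175, 2.11 and 1.58 for Napb, the SNARE-disassembly factor beta-SNAP (1.13), and 13.5, 13.9, 6.10 and 9.44 for Bet1, a SNARE of traffic to the Golgi (−0.82). Bet1 was lower on both arrays labelled knockout and Napb overlapped. Among regulators Pi4kb, a Golgi lipid kinase, had 0.788, 0.229, 2.96 and 0.536 (1.10), and Iqsec1, an activator of Arf6, had 1.38, 0.372, 1.61 and 1.49 (0.79). For Napb, Pi4kb and Iqsec1 the heterozygous mean also lay below the filter of 0.983 and the knockout mean above it. Pi4kb was above the filter on knockout 1 only, and Napb was slightly higher on heterozygous 1 than on knockout 2. The AP-5 subunit gene Ap5z1 had 4.94, 6.79, 4.71 and 4.76 (−0.27), and Tepsin, an AP-4 accessory protein, had 4.16, 6.47, 5.17 and 4.32 (−0.13).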

How the data were processed

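Biotin-labelled total RNA was hybridised to 4 one-colour arrays, and the deposited table holds a linear intensity for each of 45037 probe sets. The authors used MAS5, per the submitters' processing notes, with its version not given in the sources used here. Medians of the arrays lie close to 1, a rescaling seen in the values. Detection calls were not used here. Precision is limited by the number of arrays. Names came from the platform annotation, in which 34945 probe sets had a single gene. Values were taken as log2(value + 0.32), the pseudocount being the 25th percentile. Probe sets with a mean of at least 0.983, the median of means, were kept (22519). The labelled groups entered limma 3.58.1 under R 4.3.3 (eBayes with trend), with Benjamini-Hochberg adjustment over all kept probe sets. The fit was also run on simulated independent arrays, which cannot show how it behaves where arrays differ in level as a whole. All members were named; each other list added its 2 genes of smallest p. Members and lists were chosen with earlier results of these data known. Settings varied were pseudocount, filter, scaling, variance model, replicate block, left-out arrays and averaging over the probe sets of a gene.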

Additional observations from a re-analysis of the deposited data

How the results depend on the processing

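No member passed the adjusted threshold by limma under any setting varied except without the array labelled knockout 2, where 1 did (Itsn1), so leaving out 1 array gave 0 to 1. Without knockout 2 and quantile-normalized, Itsn1 did not pass (adjusted p = 0.383). Probe sets past the threshold numbered 0 to 240 with 1 array left out (24 without knockout 1 and 240 without knockout 2), 1 when only probe sets from the 75th percentile of means were tested, which kept 35 members, and 0 otherwise. The median log2 difference of the members ranged from −0.243 (without heterozygous 1) to 0.307 (without heterozygous 2), was −0.217 without knockout 1 and 0.249 without knockout 2, and stayed between 0.007 and 0.039 under the other planned settings. On quantile-normalized values, a setting added after seeing the data, it was −0.0003 without heterozygous 1 and 0.012 to 0.060 without 1 of the others. As deposited, between 14 and 18 members turned sign with 1 array left out, and on quantile-normalized values between 7 and 15. With the probe sets of a gene averaged, 9 did. Exoc2 and Exoc7 kept their sign under every planned setting, and Itsn1, between 0.53 and 2.45, under those that tested it. After quantile normalization, Exoc2 on heterozygous 2 (5.09) lay between the knockout values of 4.71 and 5.91. Only heterozygous 1 (7.02) lay above both. The filter at the 75th percentile left out Itsn1, Ap3s2, Ap4b1, Ap4m1 and Gga2. Each fit without 1 array has a lone array in 1 group, which is assumed to vary like the other pair. Replicate numbers are not stated to pair the arrays, and the deviations of same-numbered arrays correlated at −0.51 over kept probe sets. The replicate number also marked the sex read from Xist and the Y-linked genes, and the main fit did not adjust for sex. With the replicate number as a block, 0 probe sets and 0 members passed and the median stayed at 0.033. Crossed pairs, added after seeing the data, also gave 0 and 0.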
